A study of Mus musculus with 10 samples.

Results

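The proteins of the cytosolic ribosome were followed in reactive cholangiocytes, the bile duct cells that expand when the liver is injured, of mice with and without *Smad4*. Members were taken by gene symbol alone, as the rows named *Rpl* or *Rps* with a number (and the suffixes a, a1, al, l, l1 or x) together with *Rplp0*, *Rplp1*, *Rplp2* and *Rpsa*, while rows with -ps in the symbol, which mark pseudogenes, were left out. This gave 87 of the 49568 rows, 53 named for the large and 34 for the small subunit. Values are normalized counts, the reads on a gene divided by 1 size factor per mouse. A mean of at least 10 over the mice was reached by 82 of the 87 members and by 14870 genes in all. These were tested with limma, a linear model on log2(normalized count + 1), and a gene was called where its p, adjusted over all genes tested by the method of Benjamini and Hochberg, was under 0.05.

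The study compared 5 Smad4del mice, which carry *Alb-Cre* and floxed *Smad4* on both alleles (Smad4fl/fl in the labels), with 5 Ctl mice, labelled Smad4wt/wt. The study describes the Ctl cohorts of its injury experiments as lacking *Alb-Cre*, and the labels do not say so for the mice sequenced. Where Cre is present in one cohort alone, what it does by itself cannot be told apart from the loss of *Smad4*. *Alb-Cre* acts in hepatocytes and in bile duct cells, which arise from the same embryonic progenitors, so the deletion is not limited to cells that respond to injury. All 10 mice, of mixed background and of an age that is not given for them, had eaten for 2 weeks a diet with 0.1% DDC, which causes porphyrin plugs and bile duct injury. Cells positive for EPCAM and negative for CD45 and TER119 were sorted from each digested liver, and SMART-Seq v4 amplification of their RNA gave 1 sequenced library per mouse. Mice are named here by the numbers of the labels, which fall into 3 ranges (A5215 to A5221, A5447, and A5624 to A5628). What the ranges stand for is not given. Values per mouse are always listed for Smad4del mice A5216, A5217, A5218, A5447 and A5624 and for Ctl mice A5215, A5219, A5221, A5626 and A5628.

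A ribosome joins a small subunit, which decodes the mRNA, to a large subunit, which forms the peptide bond. Each holds ribosomal RNA and a set of proteins that are made in about equal numbers, assembled in the nucleolus and exported. Many mRNAs of these proteins begin at the cap with a C and a run of pyrimidines, the 5′ terminal oligopyrimidine (TOP) tract, through which mTOR and the binding protein LARP1 control their translation. The transcription factor MYC is known for raising the transcription of ribosomal protein genes and of the factors that assemble ribosomes when cells grow. In liver, as elsewhere, these mRNAs are abundant in nearly every cell type, so their level in a bulk sample comes from all cells in it, and a change in the cells present and a change in RNA per cell cannot be told apart.

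The TOP tract lies at the transcription start. Bases around the annotated start were taken from RefSeq on GRCm38.p6 for members that the values below turn on, with 15 bases before the start and 15 from it on, on the sense strand. Capitals mark the longest run of a C and at least 4 further pyrimidines that begins within 10 bases of the start. The windows are chr2:39005117-39005146 (minus strand) for *Rpl35*, chr17:33955651-33955680 (minus) for *Rps18*, chr7:45128731-45128760 (minus) for *Rpl13a*, chr14:24490663-24490692 (plus) for *Rps24*, chr3:90213634-90213663 (minus) for *Rps27*, chr9:66946071-66946100 (plus) for *Rps27l*, chr4:86857353-86857382 (minus) for *Rps6* and chr5:115559452-115559481 (plus) for *Rplp0*.
Rpl35: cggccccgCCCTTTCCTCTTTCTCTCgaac
Rps18: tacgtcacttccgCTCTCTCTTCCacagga
Rpl13a: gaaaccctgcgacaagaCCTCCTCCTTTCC
Rps24: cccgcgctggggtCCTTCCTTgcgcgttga
Rps27: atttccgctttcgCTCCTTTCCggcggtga
Rps27l: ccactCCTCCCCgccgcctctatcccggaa
Rps6: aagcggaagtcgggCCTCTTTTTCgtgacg
Rplp0: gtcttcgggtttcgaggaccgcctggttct

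The runs of *Rpl35*, *Rps18*, *Rps24*, *Rps27* and *Rps6* span the annotated start, that of *Rpl13a* begins after it, that of *Rps27l*, the paralog of *Rps27*, lies upstream of it, and *Rplp0* had none by this rule. The run of *Rpl13a*, of 14 bases, goes on past the window. *Rps24* and *Rps27l* each have another annotated start, with windows chr14:24490738-24490767 and chr9:66946398-66946427, and neither of these held a run. Of 76 promoters of 64 members in the table, 41 (53.9%) held such a run, against 10093 of all 32851 promoters (30.7%) and 31.9% of the 14080 promoters of tested genes. In the 300 bases from 250 before to 50 after the start, on either strand, the word CCGGAAG was in 35.5% of the members' promoters and in 8.86% of all promoters, or 15.7% for tested genes. The word TCTCGCGA was in 15.8%, against 0.995% and 1.90%. The others searched were nearer to the tested genes: GGGCGG at 60.5%, against 35.7% and 59.5%, CACGTG at 10.5%, against 7.15% and 9.40%, and TATAAA at 9.21%, against 13.6% and 7.93%. None of the 5 words contains another. The 36 tested members with a run had a median log2 fold change of 0.20 and the 24 without one 0.17, a description with no test.

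*Smad4* itself had 812, 1031, 687, 1011 and 846 normalized counts in Smad4del mice, against 3058, 3714, 3584, 2969 and 3619 in Ctl mice. Each Smad4del mouse was below each Ctl mouse (log2 fold change -1.96, SE 0.123, limma adjusted p = 1.09e-05). An exact permutation test, two-sided, gave p = 0.00794, which no design of 5 against 5 mice can go below. The libraries held 16734672 to 19710560 reads on genes in Smad4del and 16249719 to 21277339 in Ctl mice. Markers of cholangiocytes were abundant in each mouse, with a sum over 12 genes of 710055 to 867989 normalized counts in Smad4del and 508412 to 707755 in Ctl mice. Each Smad4del sum was above each Ctl sum, and 2 of the 12 were called higher. Of the markers of other cells, the endothelial and the stellate and fibroblast sums did not overlap between the cohorts, and the others did. The 14 endothelial markers summed to 8005 to 16881 in Smad4del and 23079.6 to 64825 in Ctl mice (13 called lower). The 12 macrophage markers summed to 3194 to 83188 in Smad4del and 13206 to 273305 in Ctl mice (0 called, 12 lower at an unadjusted p under 0.05), and the 10 stellate and fibroblast markers to 20852 to 30318 in Smad4del and 30694 to 57409 in Ctl mice (2 called lower). The 12 hepatocyte markers summed to 78718 to 116351 in Smad4del and 73846 to 103287 in Ctl mice, with the highest sums in A5217 and A5218, which were also high for the members. Of these, 0 were called, 9 were above 0 and 4 were higher at an unadjusted p under 0.05, with a median log2 fold change of 0.31. No gene of these 5 lists was at 0 in all mice. Lymphocyte markers summed to 16.7 to 129 in Smad4del and 61.1 to 421 in Ctl mice (1 called lower). Erythroid markers, of which 2 were at 0 in all mice, summed to 28.6 to 11387 in Smad4del and 179 to 4904 in Ctl mice (0 called). The highest erythroid sum was that of A5216. The part of these cells in the values below was not tested.

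The ribosomal protein rows together took 1.02%, 1.03%, 0.989%, 0.827% and 0.872% of all normalized counts in the Smad4del mice, against 0.752%, 0.883%, 0.847%, 0.846% and 0.740% in the Ctl mice. The mean was 0.948% ± 0.0928 in Smad4del and 0.813% ± 0.0637 in Ctl mice (SD, n = 5 each). Smad4del mice A5216, A5217 and A5218 were above every Ctl mouse, while A5447 and A5624 lay within the Ctl range. The 3 high mice are all of the number range A5215 to A5221, where the 3 Smad4del mice had 0.989% to 1.03% and the 3 Ctl mice 0.752% to 0.883%. Among mice A5624 to A5628 the 1 Smad4del mouse had 0.872% and the 2 Ctl mice 0.740% and 0.846%. The third range holds A5447 alone, so no comparison can be made within it.

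The same mice set the order of single members. A5217 held the highest of the 10 values for 38 of the 82 tested members, A5216 for 27, A5218 for 14 and Ctl mouse A5219 for 3, and no other mouse held a highest value. The lowest value fell on Ctl mouse A5628 for 61 members, on Ctl mouse A5215 for 13, on Ctl mouse A5221 for 3, on A5447 and A5624 for 2 each and on Ctl mouse A5626 for 1. A5628, the mouse with the lowest ribosomal protein share, had the highest cholangiocyte marker sum of the Ctl mice, and A5215, the next lowest, had the lowest cholangiocyte and the highest macrophage and endothelial sums. Large and small subunit members moved together. The summed large subunit members were 1.43 to 1.48 times the summed small subunit members in Smad4del and 1.43 to 1.52 times in Ctl mice, and these ranges overlap.

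**Figure D1:**
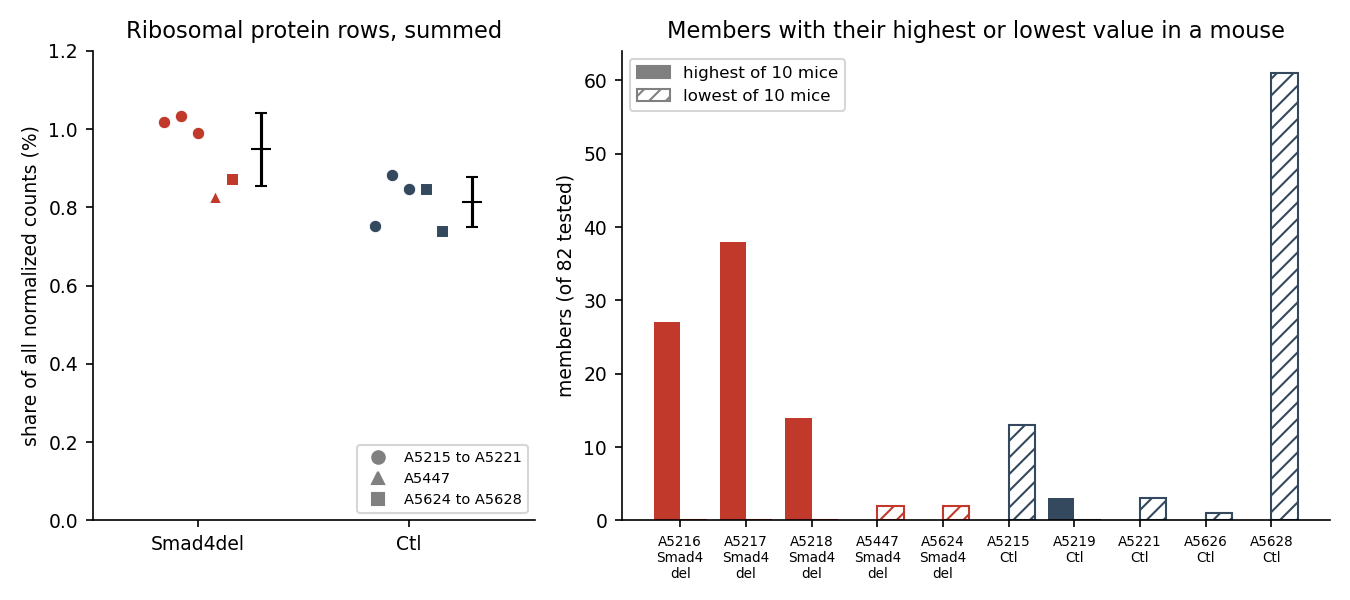
Left, summed ribosomal protein rows as a percent of all normalized counts (vertical axis from 0), with 1 point per mouse, the point shape giving the range of mouse numbers, and the mean ± SD drawn to their right. Right, number of the 82 tested members whose highest (filled) or lowest (hatched) value of the 10 mice fell on each mouse. The highest values fell mostly on Smad4del mice A5216, A5217 and A5218 and the lowest on Ctl mouse A5628, with 61.

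No member passed limma's test at an adjusted p under 0.05. It called 0 of the 82 higher, where 2.43% of all 14870 genes were called higher, and 0 lower, where 4.69% were. The members nonetheless lay almost wholly on one side. The log2 fold change, Smad4del over Ctl on the log2(normalized count + 1) scale, was above 0 for 81 of the 82, against 49.4% of all genes tested, and *Rps19* was the exception at -0.03. The members' median was 0.19, with quartiles of 0.13 and 0.24, and that of all genes tested was -0.0050. At an unadjusted p under 0.05, 24 members (29.3%) were higher and 0 lower, where 12.3% of all genes were higher. By subunit, the median was 0.19 over 49 large subunit members, of which 13 had such a p, and 0.18 over 33 small subunit members, of which 11 did. The median standard error of a member's fold change was 0.106.

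Within the range A5215 to A5221, 3 mice against 3, the members' median was 0.25 and limma called 0 members, and between the 1 Smad4del and 2 Ctl mice of the range A5624 to A5628 it was 0.10, with no test. With the number range as a term over all 10 mice, limma called 426 of all 14870 genes higher. Of the members it called *Rps7* (0.32, limma adjusted p = 0.0400) and *Rps27l* (0.43, limma adjusted p = 0.0484) higher, and the members' median was 0.20. The counts rested on few mice. With A5217 left out, 7 members were higher at an unadjusted p under 0.05, with A5216 9, with A5218 13 and with Ctl mouse A5628 8, while the median stayed between 0.13 and 0.22 for each mouse left out. With the level of *Xist*, an RNA of the inactive X chromosome, as a covariate for the sex that the labels do not give, 13 were higher at such a p and the median was 0.15. Without A5447 limma called 3 members higher (*Rps7*, *Rps24* and *Rps27l*), where 564 of all 14870 genes were called higher. Without Ctl mouse A5219 it called *Rps18*, where 450 of all genes were called higher. DESeq2 on the reads recovered from the normalized counts called *Rps7*, *Rps18*, *Rps24* and *Rps27l* higher (4 of 82, where 6.01% of all genes were called higher), of which *Rps18* was called without A5217, and edgeR called 0 members (26 higher at an unadjusted p under 0.05). With each mouse scaled to the same median count, limma called the same 4 genes as DESeq2, where 626 of all genes were called higher. That scaling moved the median of all genes to 0.06, a shift of 0.065, and the members' median was 0.25, with 40 higher at an unadjusted p under 0.05.

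**Figure D2:**
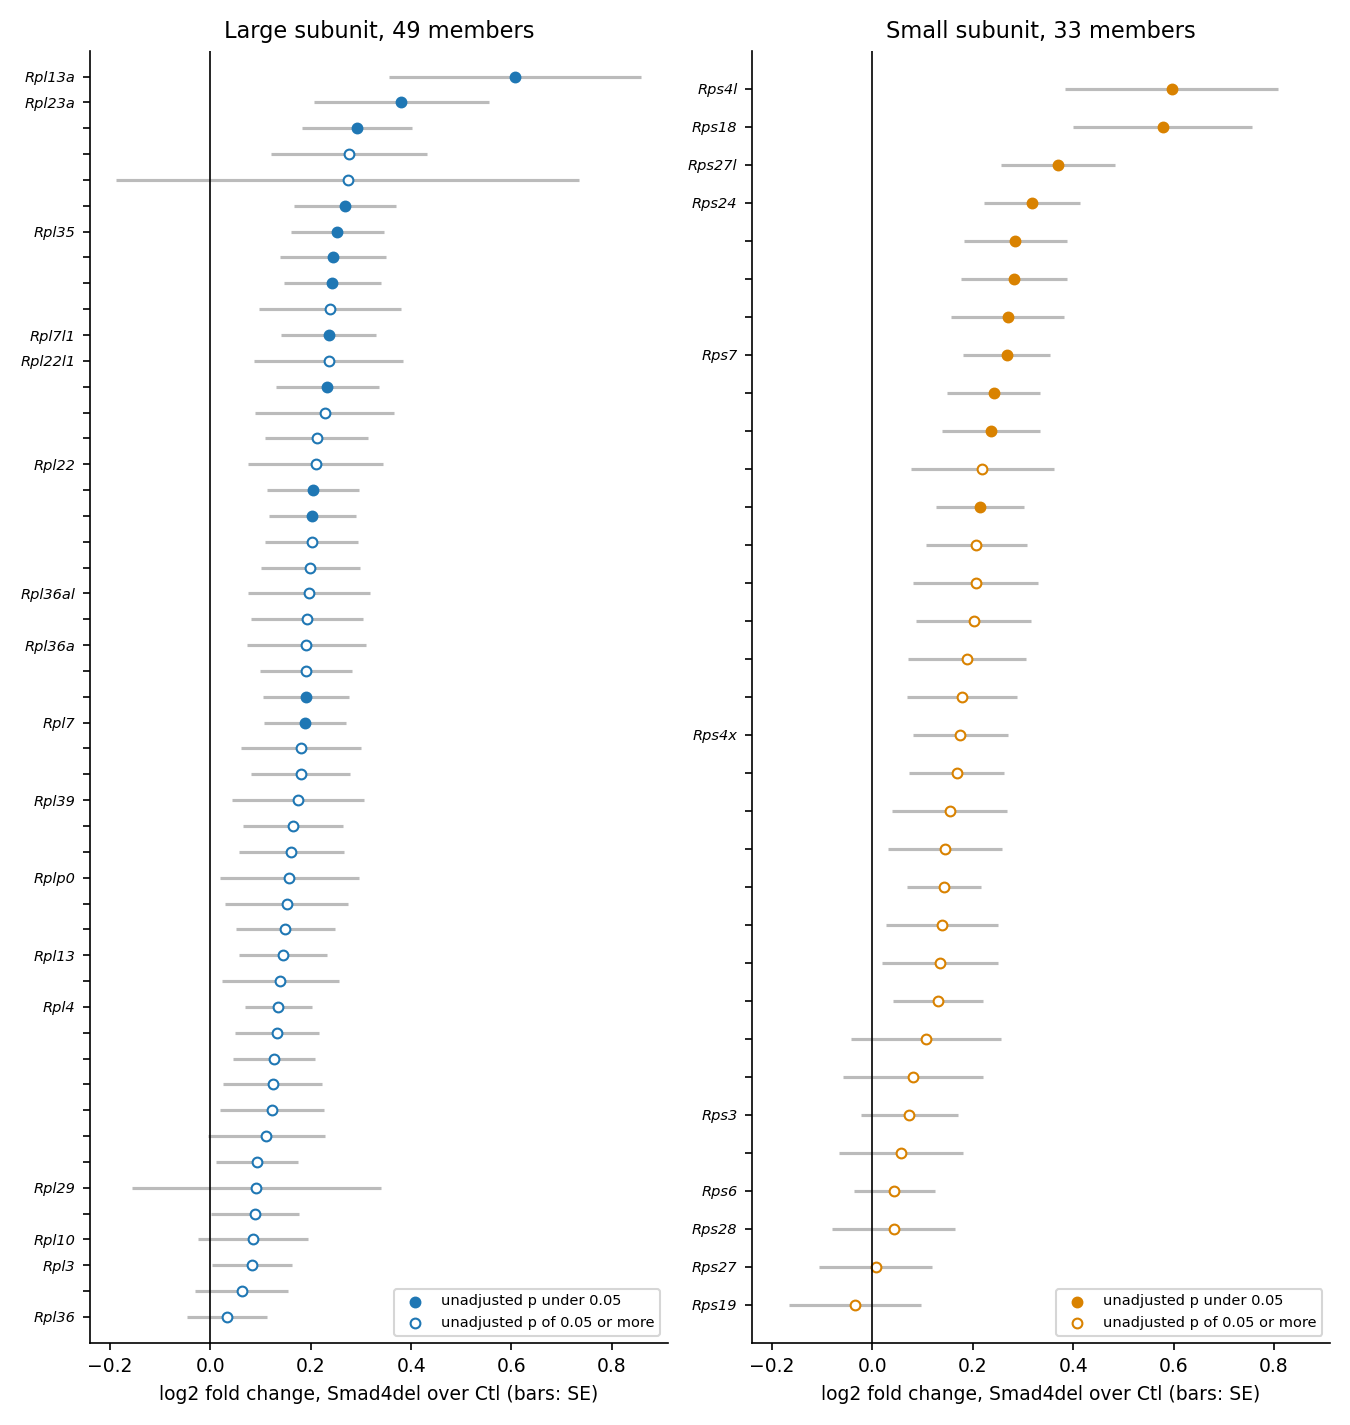
Log2 fold change, Smad4del over Ctl, with its standard error (bars) for the 49 large subunit and 33 small subunit members tested, ordered by size, with names for most of the genes described in the text. Filled points had an unadjusted p under 0.05, 13 on the left and 11 on the right. All points but *Rps19*, which turned above 0 under median, quantile and total count scaling, lie above 0, and none passed the adjusted threshold.

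Ribosomal protein genes are short, and the length of a gene went with its fold change in these libraries. Over all genes with an annotated exon length (14506 of those tested), the median log2 fold change was 0.14 in the shortest quintile (57 to 2286 bases), then 0.05, -0.00073 and -0.05, and -0.12 in the longest quintile (from 7319 bases). The 52 members in the shortest quintile had a median of 0.18, and the 22 in the next quintile 0.20, against 0.05 for all genes there. In the shortest quintile 62.1% of genes and 52 of 52 members were above 0, and 17.3% of genes and 14 members (26.9%) were higher at an unadjusted p under 0.05. The members thus lay above genes of like exon length by 0.04 and 0.15 in these 2 quintiles, a description with no test. By abundance there was no such order near the members' level, with medians of 0.02 and 0.0046 in the 2 highest quintiles, which hold 71 of the members. Exon length here merges the exons of all transcripts of a gene, so it can far exceed the length of an mRNA. *Rpl35a* had 3526 exon bases and a longest protein-coding transcript of 519, and *Rpl30* had 3020 and 886. The members were not set against genes of like transcript length.

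*Rpl4*, *Rplp0*, *Rpl13*, *Rps3* and *Rpl3* were among the most abundant members, by mean normalized count. *Rpl4*, whose protein reaches into the tunnel through which the new peptide leaves, had 8998, 9821, 9752, 9386 and 8955 normalized counts in Smad4del mice, against 8184, 8249, 9240.2, 8748 and 8287 in Ctl mice. Ctl mouse A5221 lay within the Smad4del range (log2 fold change 0.14, SE 0.067, limma adjusted p = 0.211). *Rplp0*, the base of the stalk that recruits elongation factors, had 8681, 8857, 9678, 5468 and 7432 normalized counts in Smad4del mice, against 7059, 7836, 7179.5, 7091 and 6226 in Ctl mice. A5447 was the lowest of all 10 mice and A5218 the highest, so that the SD was 1639 in Smad4del and 573 in Ctl mice (0.16, adjusted p = 0.486 from limma). The partners of *Rplp0* in the stalk, *Rplp1* and *Rplp2*, were at 0.11 and 0.24 on the log2 scale (limma adjusted p = 0.561 and 0.296). *Rpl13* (0.15), *Rps3*, which lines the channel where mRNA enters (0.07), and *Rpl3*, near the site of peptide bond formation (0.08), had adjusted p-values of 0.299 to 0.655 from limma. Per kilobase of merged annotated exon, *Rplp0* (4551 normalized counts) and *Rpl4* (4465) were the highest, followed by *Rps3a1* (3588) and *Rps27l* (3582). This order can depend on the length used. *Rpl13*, for 1, had 2595 merged exon bases but a longest protein-coding transcript of 780.

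The largest fold changes among members with a mean of at least 50 were those of *Rpl13a*, *Rps4l*, *Rps18*, *Rpl23a* and *Rps27l*. *Rps18*, a protein of the head of the small subunit, had 2056, 2088, 2866, 1878 and 2312 normalized counts in Smad4del mice, against 1743, 1924, 1146, 1745 and 1071 in Ctl mice. Only A5447 fell below the highest Ctl mouse, A5219, and Ctl mice A5221 and A5628 lay far below the other 3 (0.58, SE 0.178, adjusted p = 0.0674 by limma and 0.0245 by DESeq2). With each mouse scaled to the summed members, the largest fold changes were those of *Rpl13a* (0.44), *Rps4l* (0.42) and *Rps18* (0.41, adjusted p = 0.143 from limma). On that scale 0 of 82 members were called, 47 were above 0 and 1, *Rps18*, had an unadjusted p under 0.05.

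*Rpl13a*, which in human cells also acts outside the ribosome to silence translation of inflammatory mRNAs, had 117, 138, 123, 72.8 and 91.9 normalized counts in Smad4del mice, against 63.1, 96.8, 62.9, 61.4 and 66.6 in Ctl mice. Its level was the lowest of the tested members but for that of *Rpl6l* (mean 15.4), and A5447 and A5624 lay below Ctl mouse A5219 (0.61, SE 0.251, limma adjusted p = 0.144). *Rpl23a*, which lies at the exit of the peptide tunnel, had 176, 232, 246, 169 and 185 normalized counts in Smad4del mice, against 155, 156, 151, 175 and 131 in Ctl mice. All but A5447 were above every Ctl mouse (0.38, SE 0.174, limma adjusted p = 0.182). Values of both are uncertain. In GENCODE M21, 748 of the 2114 exon bases of *Rpl13a* and 528 of the 847 of *Rpl23a* overlap other annotated genes, and 44.8% and 20% of their 100-base transcript windows occur in no other annotated gene. Of the 4 members that DESeq2 called, *Rps18* (42.7%) and *Rps7* (44.1%) also had under 50% of such windows. *Rps24* (89.3%) and *Rps27l* (100%) had more. For *Rps18*, 156 of the 2451 exon bases overlap another gene. *Rps4l* is described with the paralogs.

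Of 82 members tested, 54 had at least 50% of such windows to themselves. Their median log2 fold change was 0.17, with 13 higher at an unadjusted p under 0.05, and the 28 with fewer had 0.21, with 11. For the 44 members whose exons overlap no other gene it was 0.17, and for the other 38 it was 0.20, so that members that share sequence lay slightly higher. This difference was not tested.

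Other members are named because of their values. *Rps24* and *Rps7*, which are needed to process the small subunit RNA and are mutated in Diamond-Blackfan anemia in humans, had the smallest adjusted p-values beside *Rps27l* and *Rps18*. *Rps24* had 1477, 1426, 1376, 1203 and 1238 normalized counts in Smad4del mice, against 1031, 1129, 984, 1224 and 1025 in Ctl mice, and only A5447 was below a Ctl mouse, A5626 (0.32, SE 0.0954, limma adjusted p = 0.0629). *Rps7* had 1675, 1759, 1722, 1371 and 1652 in Smad4del mice, against 1348, 1355, 1403, 1406 and 1262 in Ctl mice. Here again A5447 was the one Smad4del mouse within the Ctl range (0.27, SE 0.087, limma adjusted p = 0.0789). *Rpl35*, at the peptide exit of the large subunit, had 953, 984, 1001, 838 and 867 normalized counts in Smad4del mice, against 823, 769, 785, 818 and 698 in Ctl mice (0.25, SE 0.0927, limma adjusted p = 0.108). It was the one member whose cohorts did not overlap upward (1 of 82, where 3.50% of all genes tested had no overlap and were higher), and 17.0% of its windows occur in no other annotated gene. *Rpl29* had 723, 1425, 694, 568 and 617 normalized counts in Smad4del mice, against 893, 626, 973, 607 and 551 in Ctl mice. A5217 stood alone at 1425, and the log2 fold change, 0.09 over all mice (limma adjusted p = 0.843), was -0.14 without that mouse.

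**Figure D3:**
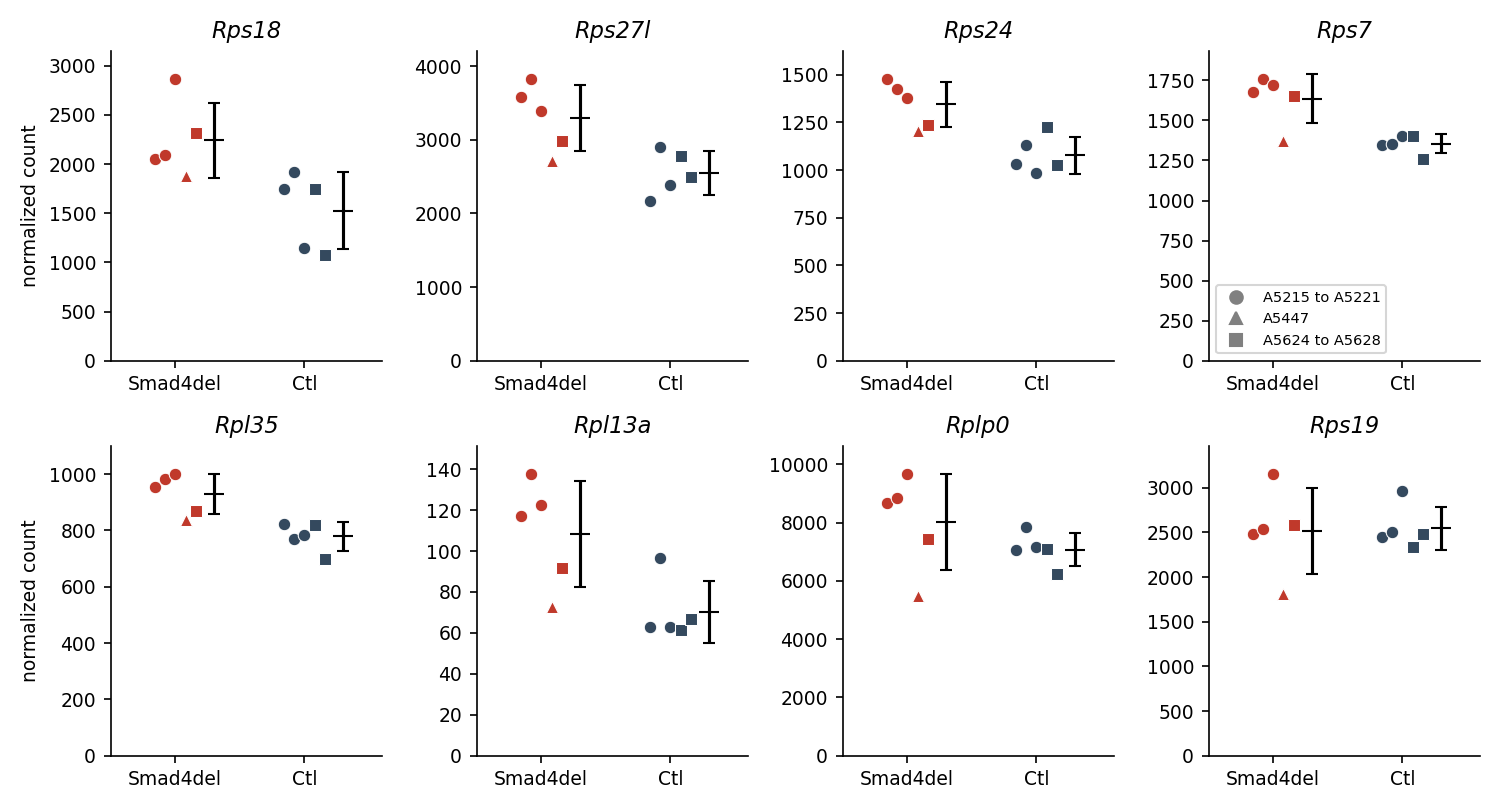
Normalized counts (vertical axes, linear from 0, each on its own scale) of *Rps18*, *Rps27l*, *Rps24*, *Rps7*, *Rpl35*, *Rpl13a*, *Rplp0* and *Rps19*, with 1 point per mouse, the shape giving the range of mouse numbers, and the mean ± SD drawn to their right. A5447 (triangle) is the lowest Smad4del mouse in each panel, and the cohorts do not overlap for *Rpl35* alone, where Smad4del mice lie between 838 and 1001 and Ctl mice between 698 and 823.

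At the other end, *Rps19*, *Rps27*, *Rpl36*, *Rps28* and *Rps6* had the lowest fold changes. *Rps19*, the gene most often mutated in human Diamond-Blackfan anemia, had 2485, 2541, 3156, 1808 and 2582 normalized counts in Smad4del mice, against 2448, 2501, 2966, 2331 and 2478 in Ctl mice. Smad4del mice held both the highest and the lowest value, and the fold change (-0.03, SE 0.131, limma adjusted p = 0.892) turned above 0 under median, quantile and total count scaling. *Rps6*, which is phosphorylated downstream of mTOR, had 2434, 2767, 2716, 2483 and 2205 in Smad4del mice, against 2621, 2371, 2474, 2407 and 2326 in Ctl mice, a log2 fold change of 0.04 (SE 0.0809, limma adjusted p = 0.762). *Rps27* (0.0068), *Rpl36* (0.03) and *Rps28* (0.04) had adjusted p-values of 0.824 to 0.978 from limma. A p that misses the threshold does not show that these 5 differ from the members above.

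Among the members are 8 paralogs of other members. *Rps27l*, which encodes a close relative of *Rps27* and is a target of p53, had 3583, 3827, 3385, 2711 and 2986 normalized counts in Smad4del mice, against 2163, 2903, 2391, 2786 and 2497 in Ctl mice (0.37, SE 0.113, adjusted p = 0.0666 by limma and 0.0240 by DESeq2). *Rps27* had 1798, 1625, 1789, 1413 and 1513 in Smad4del mice, against 1791, 1801, 1742, 1468 and 1322 in Ctl mice. *Rps27l* exceeded *Rps27* in every mouse, also per kilobase of exon (3582 and 1559 normalized counts over all mice). The ratio of *Rps27l* to *Rps27* was 1.99, 2.35, 1.89, 1.92 and 1.97 in Smad4del mice, against 1.21, 1.61, 1.37, 1.90 and 1.89 in Ctl mice. The 3 Ctl mice of the range A5215 to A5221 were the low ones, whereas Ctl mouse A5626 was just above and A5628 just below the lowest Smad4del ratio, that of A5218. Every 100-base window of *Rps27l* is its own, and 42.1% of those of *Rps27*.

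*Rps4l*, a relative of the X-linked *Rps4x* that GENCODE M21 lists as a transcribed processed pseudogene on chromosome 6, had 889.5, 1066, 1451, 1018 and 1017 normalized counts in Smad4del mice, against 521, 989, 480.2, 916 and 794 in Ctl mice. A5216 was below 2 Ctl mice, and Ctl mice A5215 and A5221 were the lowest (0.60, SE 0.213, limma adjusted p = 0.102). Its ratio to *Rps4x* was 0.304, 0.310, 0.473, 0.392 and 0.415 in Smad4del mice, against 0.207, 0.369, 0.186, 0.358 and 0.330 in Ctl mice, and the cohorts overlap. *Rpl7l1*, a nucleolar relative of *Rpl7* known from large subunit assembly, had 856 normalized counts per kilobase of exon over all mice, against 1121 for *Rpl7*. The ratio of their counts was 0.993 to 1.04 in Smad4del mice, and in Ctl mice it was wider, at 0.807 to 1.17. *Rpl7l1* (0.24, limma adjusted p = 0.137) and *Rpl7* (0.19, limma adjusted p = 0.161) had like fold changes. So did *Rpl22l1* (0.24) and *Rpl22* (0.21), and *Rpl36al* (0.20) and *Rpl36a* (0.19), with adjusted p-values of 0.317 to 0.331 from limma. The 3 paralogs known for tissues other than liver were near 0. *Rpl10l*, of testis, had 0 reads in all mice, which allows up to 3 reads in each library of 16249719 to 21277339 by counting error alone, and *Rpl39l*, also of testis, reached at most 5.18 normalized counts. *Rpl3l*, of heart and skeletal muscle, had 0, 0, 1.01, 0 and 0 normalized counts in Smad4del mice, against 12, 5.95, 0, 7.67 and 1.11 in Ctl mice. At this depth that is a few reads per library. Their partners *Rpl10* (0.09), *Rpl39* (0.17) and *Rpl3* were abundant and had adjusted p-values of 0.410 to 0.644.

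**Figure D4:**
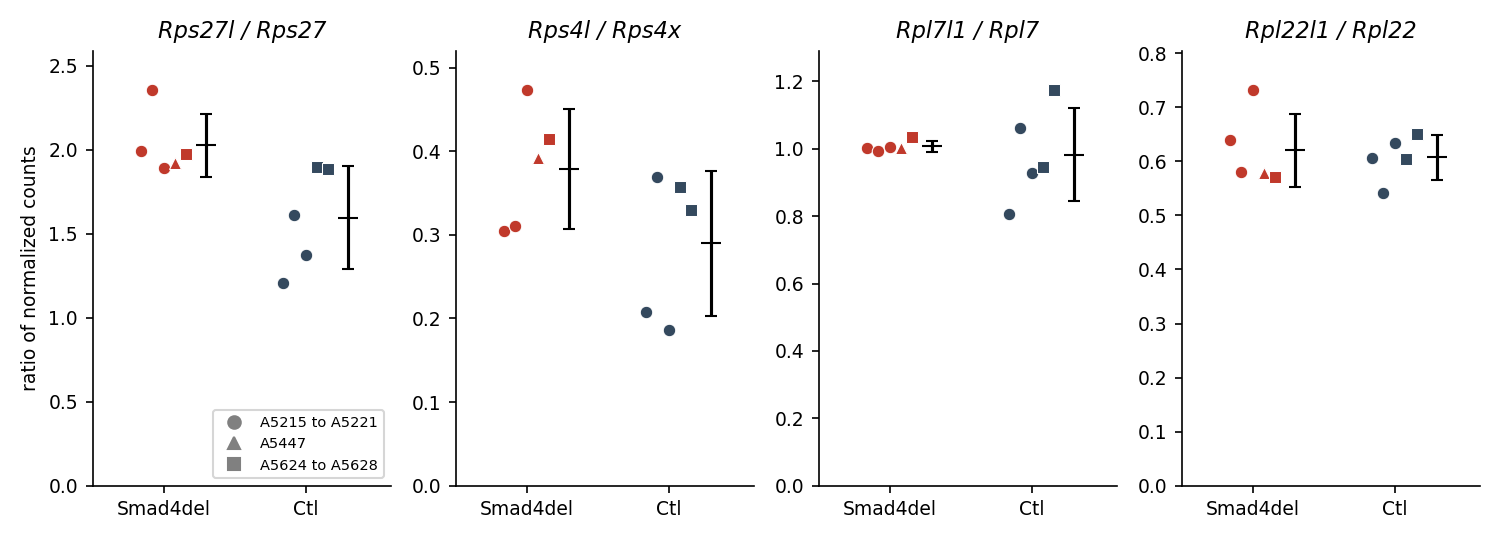
Ratio of the normalized counts of 4 paralogs to those of their partners (vertical axes, linear from 0), with 1 point per mouse, the shape giving the range of mouse numbers, and the mean ± SD. For *Rps27l* over *Rps27* the Smad4del mice lie between 1.89 and 2.35 and the Ctl mice between 1.21 and 1.90.

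The other 2 members under the minimum were *Rps12l1*, listed as a pseudogene, with 0 reads in all mice, and *Rpl24*, a protein at the subunit interface that every cell uses, with 6.22, 0.998, 1.01, 1.84 and 4.18 normalized counts in Smad4del mice, against 3.26, 0.849, 1.85, 0.959 and 0 in Ctl mice. In GENCODE M21, 484 of its 1030 exon bases overlap *Gm28037*, which had 0 reads in all mice, and 19.9% of its windows occur in no other annotated gene. How reads on both genes were counted is not given, so these values say nothing of its level.

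Genes that work with the ribosome were described from lists, whose medians were not set against genes of like exon length. Of all genes tested, 2.43% were called higher, 4.69% were called lower and 49.4% were above 0. *Rack1* and *Fau*, whose products sit on the small subunit under other names, had log2 fold changes of 0.19 and 0.14 (adjusted p = 0.258 and 0.343 from limma), and neither was called. Of 51 genes of ribosome biogenesis, 1 was higher and 0 lower, 40 were above 0, and the median was 0.15. The higher one was *Dkc1*, which modifies ribosomal RNA, with 1160.1, 1338, 1237, 1199 and 1197 normalized counts in Smad4del mice, against 901, 694, 881, 991 and 987 in Ctl mice. Every Smad4del mouse was above every Ctl mouse (0.47, SE 0.108, limma adjusted p = 0.0259), and the call was lost without A5217, A5218 or Ctl mouse A5221 (adjusted p = 0.0583 to 0.0713). Of 45 translation factors, 1 was higher and 0 lower, with 32 above 0 and a median of 0.08. It was *Eef1d*, an exchange factor of elongation that also has a TOP mRNA, at 2149.9 ± 195 normalized counts in Smad4del and 1721 ± 129 in Ctl mice (SD, n = 5 each). Its call (0.32, adjusted p = 0.0479 from limma) was lost with each of the mice left out but Ctl mouse A5219 and A5447 (adjusted p = 0.0587 to 0.117).

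Other TOP mRNAs, of which 20 were tested, had 1 called higher (*Eef1d* again), 1 called lower, 14 above 0 and a median of 0.14. At an unadjusted p under 0.05 from limma, 4 were higher and 1 lower. The lower one was *Vim*, the intermediate filament of mesenchymal and endothelial cells, with 2048 ± 486 normalized counts in Smad4del and 3912 ± 1019 in Ctl mice (SD, n = 5 each; -0.92, adjusted p = 0.0154 from limma), and the summed stellate and endothelial markers given above were also lower in each Smad4del mouse than in each Ctl mouse. The part of those cells in it was not tested.

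For the regulators only mRNA levels were read, and the activity of MYC and mTOR was not measured. Of 16 genes of MYC and mTOR control, 0 were called (1 higher and 2 lower at an unadjusted p under 0.05), 5 were above 0, and the median was -0.09. *Myc* had 3018, 3305, 2949, 5528 and 3394 normalized counts in Smad4del mice, against 6497, 4306, 5737, 4030.4 and 5647 in Ctl mice. A5447 alone was high among the Smad4del mice (-0.55, SE 0.183, limma adjusted p = 0.086). *Myc* was called lower by limma without A5447 (adjusted p = 0.0154) and with the number range as a term (-0.72, adjusted p = 0.0234), and by DESeq2 over all mice (-0.53, adjusted p = 0.0402) though not without A5217 (adjusted p = 0.112). *Mycn*, at 1.04 to 24 in Smad4del and 21.8 to 82.4 in Ctl mice, had -1.91 (standard error 0.717, adjusted p = 0.115), *Larp1* -0.08 (adjusted p = 0.640) and *Rheb*, which switches on mTOR, -0.07 (adjusted p = 0.648 from limma).

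Proteins of the mitochondrial ribosome, which are encoded by other nuclear genes, lay on the same side. Of 77 tested, 75 were above 0, 42 were higher and 0 lower at an unadjusted p under 0.05, 2 were called higher, and the median was 0.29, against 0.19 for the cytosolic members. Of all genes tested, 49.4% were above 0, 12.3% were higher at such a p and 2.43% were called higher. The median was not set against genes of like exon length. Mitochondrial ribosomal proteins took 0.302% to 0.385% of all normalized counts in Smad4del and 0.244% to 0.318% in Ctl mice. A5447 was the one Smad4del mouse within the Ctl range, where for the cytosolic members A5624 was within it too. The 2 called were *Mrps25* (0.58, standard error 0.14, adjusted p = 0.031) and *Mrpl42* (0.38, SE 0.0946, limma adjusted p = 0.0346). Each lost its call when any 1 of at least 7 of the 10 mice was left out (adjusted p up to 0.0769 for *Mrps25* and 0.0899 for *Mrpl42*). Of 276 rows with pseudogene symbols 11 were tested, with 0 called and a median of 0.08. They are few in number and low, with sums of 712 to 828 normalized counts in Smad4del and 619 to 786 in Ctl mice. The 2 most abundant, *Rps2-ps10* and *Rpl3-ps1*, had log2 fold changes of 0.27 and 0.08 (adjusted p = 0.332 and 0.796 from limma).

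**Figure D5:**
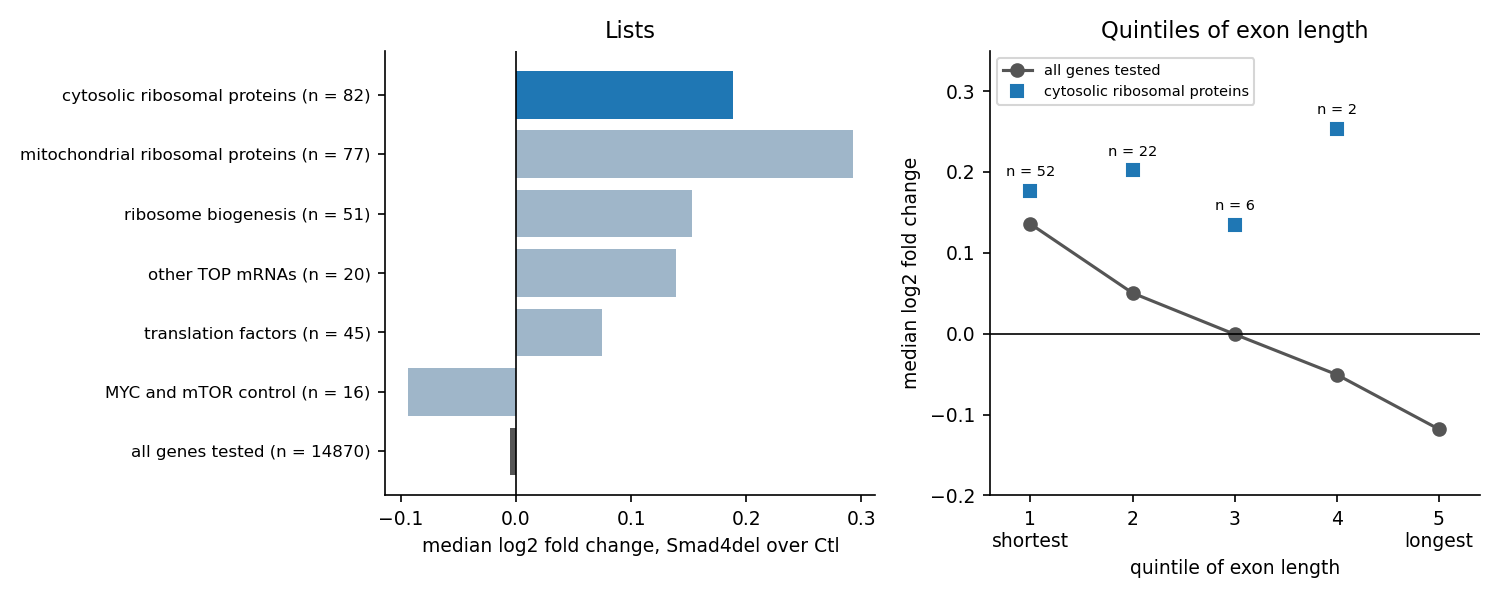
Left, median log2 fold change, Smad4del over Ctl, of the cytosolic ribosomal proteins, 5 other lists and all genes tested, with the number tested in parentheses. Right, the same median over all genes (circles) and over the members (squares, with their number) in quintiles of annotated exon length, where all genes fall to -0.12 in the longest quintile.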

How the data were processed

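The members and gene lists were chosen with earlier results of these data known. Per the paper's methods, the authors ran Trimmomatic 0.36, STAR against GRCm38.p5, featureCounts with the GENCODE M12 annotation and DESeq2 1.14.1 for normalization. The submitters' notes also name mm9, which was not used. The deposited values are these normalized counts, a signal with 1 size factor per mouse and no length correction. Whether multi-mapping reads are included in them is not given.

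Each mouse's values were whole multiples of 1 step (relative tolerance 1e-06, 100% of values), which gave back the reads. For A5217 the step lies too near 1 to exclude rounding, so the count tests were also run without it. With R 4.3.3 and limma 3.58.1, a model with the cohort as its term was fitted on log2(normalized count + 1) for genes with a mean of at least 10, with a trended prior and Benjamini-Hochberg adjustment at 0.05 over all genes tested. DESeq2 1.42.0 and edgeR 4.0.16 were run on recovered reads. The script was tested on simulated data. Positions, exon lengths and transcript windows of 100 bases are from GENCODE M21 (GRCm38) and start windows from RefSeq. Members were compared by counts and medians. Named genes are *Smad4*; members called; the 6 most abundant members; the 5 highest and 5 lowest fold changes with a mean of at least 50; 8 paralogs with partners; from each related list up to 4 called genes or the 2 most abundant; *Myc*, *Mycn* and *Larp1*. *Rps24*, *Rps7*, *Rpl35*, *Rpl29*, *Rpl24* and, in passing, other members were chosen after their values were seen. A member that the rule names is not reported here.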

Additional observations from a re-analysis of the deposited data

Results flagged for a closer look

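Over the named genes and the ribosomal protein share, 92 groups of 5 mice were examined for a mouse far from the other 4, and 9 were found, where chance gives about 1 in 20. In Smad4del mice, A5447 was low for *Rps7* (1371 normalized counts, next 1652) and high for *Myc* (5528, next 3394). A5217 was high for *Rpl29* (1425, next 723), and A5218 held the only read of *Rpl3l* among Smad4del mice (1.01 normalized counts). In Ctl mice, A5628 was low for *Rpl10* (2853, next 3362) and for *Fau* (999, next 1243). A5219 was high for *Rpl13a* (96.8, next 66.6), and A5221 was high for *Rps19* (2966, next 2501) and *Rps2-ps10* (225, next 173).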

How the results depend on the processing

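No paired analysis was possible because the labels number each mouse separately, so the cohorts share no replicate number. The members' median log2 fold change was above 0 in every setting run. It lay within 1 SD between mice (0.130) of its main value, 0.19, in all but 1, where each mouse was scaled to the summed members (0.017). This limit is wide beside the median itself, and the 0.10 among mice A5624 to A5628 also falls within it. The members' median was 0.13 to 0.22 with each mouse left out. The members' share was higher in Smad4del mice by 0.113 to 0.165 percentage points with each mouse left out. *Smad4* kept its call in all settings. The number of members called higher was 4 with median scaling and with DESeq2, 2 with the number range as a term, 1 with quantile scaling, array weights, the *Xist* covariate and DESeq2 without A5217, and 0 to 3 with each mouse left out. None was called lower. For all genes, the count called higher was 209 with no filter, 626 with median, 580 with quantile and 98 with member scaling. It was 426 with the number range as a term, 504 with array weights, 407 with the *Xist* covariate and 444 with DESeq2 without A5217. Mice A5215 to A5221 alone gave 9 higher and 50 lower, DESeq2 893 and 1290 and edgeR without A5217 89 and 265. With each mouse left out, 99 to 564 were higher and 324 to 841 lower. The cause was not tested.

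*Rps19* was above 0 with median (0.031), quantile (0.010) and total count scaling (0.012), with the number range term (0.063) and among mice A5215 to A5221 (0.045). With each mouse left out it was -0.12 to 0.079, *Rps27* -0.065 to 0.056, *Rps28* -0.045 to 0.10 and *Rpl29* -0.14 to 0.21. *Rps27* was below 0 with *Xist* (-0.035) and among mice A5215 to A5221 (-0.035), and *Rpl29* with DESeq2 (-0.17) and edgeR (-0.16) without A5217. Scaling to the summed members sets their sum equal by construction, and 47 of the 82 members were above 0 there. The named genes that turned from above to below 0 were *Rpl4* (-0.036), *Rplp0* (-0.015), *Rpl13* (-0.027), *Rps3* (-0.099), *Rpl3* (-0.089), *Rps27* (-0.17), *Rpl36* (-0.14), *Rps28* (-0.13), *Rps6* (-0.13), *Rpl10* (-0.087), *Fau* (-0.031), *Rpl3-ps1* (-0.094) and *Rpl29* (-0.080). *Rps19*, below 0 before, was at -0.21.

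Alternatives chosen after seeing the data gave like medians: 0.18 for protein-coding members, 0.17 for members with at least 50% unique windows, 0.17 for those that overlap no gene and 0.10 among mice A5624 to A5628. The values cover 5 mice per cohort, and reads of near-identical copies cannot be told apart by these counts.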
